A study of Mus musculus with 4 samples.

Results

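Pancreatic islets of C57BL/6 mice express 54 protein-coding genes that were readily counted in islet RNA and held 0 counts in RNA recovered with IMP2. They are all the protein-coding genes with at least 10 CPM (a count as a share of the summed gene counts of its library, times 1e6) in both islet libraries and no count in the IMP2 immunoprecipitate. They make up 54 of the 9282 protein-coding genes that reached 10 CPM in both islet libraries, or 0.582%, and the other 9228 had at least 1 count there. The file of each library lists 43629 genes, 21551 of them protein-coding. The genes were selected on their counts in the RIP and in both islet libraries, and those counts are given below as a description and carry no test.

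The series has 4 libraries, 1 per group. The first is RNA recovered from islets of genotype WT by immunoprecipitation of IMP2 (RNA immunoprecipitation, RIP), with a library labelled IgG from WT islets beside it. IgG is the usual control antibody of such an experiment. The others are total RNA of islets of genotype Rip2;IMP2, called an islet-specific knockout of IMP2 in the series title, and of islets of genotype control. The labels read here give no age or number of mice. Rip2 is a common name of an insulin promoter, active in beta cells, so other cells of an islet preparation may keep an intact gene. Igf2bp2, which encodes IMP2, had 222 counts (9.14 CPM) in the library labelled knockout and 255 counts (9.68 CPM) in control, so the label is not checked by its count and the name "library labelled knockout" is kept. The libraries held 6025594 gene counts in the RIP, 13195732 in IgG, 24275628 in the library labelled knockout and 26350813 in control. With 1 library per group nothing here has a replicate check. An interval on a ratio covers counting error only. The reads carry no molecular tags that would tell copies of 1 molecule apart, so these intervals are too narrow. An interval on a share of genes treats the genes as independent draws. Genes are not replicates, so such an interval is a description and not a test.

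IMP2 is one of the IGF2 mRNA-binding proteins, which hold mRNAs in ribonucleoprotein particles and act on their stability, transport and translation. These proteins bind short CA-rich motifs, among them one written CAUH, where H is any base but G, and they are also known as readers of the methylated adenosine mark m6A, whose consensus holds the core GGAC. An RNA immunoprecipitation recovers the RNAs bound by the protein together with a background of abundant RNA.

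The CAUH motif is common in coding sequence, and the richest stretch of 60 bases held a median of 3 matches both for the 54 genes and for expressed genes of like level. The stretches below are the 60 bases of coding sequence (GENCODE M21, build GRCm38, transcript strand, 5′ to 3′) with the most matches to CATA, CATC or CATT, the DNA spelling of CAUH, for the 6 genes with the highest mean CPM. They are shown because these RNAs were the most abundant of the set by CPM. Capitals mark the matches, and overlapping matches were counted.
Ikzf3: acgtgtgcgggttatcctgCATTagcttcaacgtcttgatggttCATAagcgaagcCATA
Thbs1: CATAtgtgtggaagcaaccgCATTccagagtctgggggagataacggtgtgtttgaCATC
Ipo7: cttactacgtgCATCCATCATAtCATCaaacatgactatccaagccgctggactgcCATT
Pla2g2d: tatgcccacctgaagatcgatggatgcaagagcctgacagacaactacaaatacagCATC
Blnk: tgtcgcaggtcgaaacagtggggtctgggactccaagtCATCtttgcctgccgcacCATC
Cd72: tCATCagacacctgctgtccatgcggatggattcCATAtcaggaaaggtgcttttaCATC
The stretch of Ipo7 (chromosome 7, plus strand, coding bases 328 to 387) held 5 matches, and 5.87% of the 9281 expressed genes with a coding sequence of that length or more had a stretch with as many. Those of Ikzf3 (chromosome 11, minus strand, bases 359 to 418), Thbs1 (chromosome 2, plus strand, bases 40 to 99) and Cd72 (chromosome 4, minus strand, bases 517 to 576) held 3, a number that 66.0% of expressed genes reached. Blnk (chromosome 19, minus strand, bases 672 to 731) had 2, a number that 92.9% of expressed genes reached, and Pla2g2d (chromosome 4, plus strand, bases 208 to 267) had 1, as 99.3% did. A match is a description of the letters, not a binding site.

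The 54 genes were expressed at the low end of the range that the rule admits. Their levels ran from 10.3 to 25.2 CPM in the library labelled knockout, with a median of 13.4, and from 10.1 to 81.5 CPM in control, with a median of 14.6. A gene at 10 CPM would give 60.3 reads in a library as deep as the RIP, and the 54 genes at their control CPM would give between 60.6 and 491.2, with a median of 87.9. Of the 54, 44 (81.5%) had a mean CPM below 20, against 21.8% of all 9282 expressed genes, and 0 of the 3246 expressed genes with a mean of 50 CPM or more was at 0 in the RIP. A level of 3 counts, used here as a floor for a count of 0, equals 0.498 CPM in the RIP. The control CPM of these genes was 20.2-fold to 163.7-fold that floor. The rule itself sets the lower end of this range, since it asks for 10 CPM in control and 0 counts in the RIP.

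**Figure D1:**
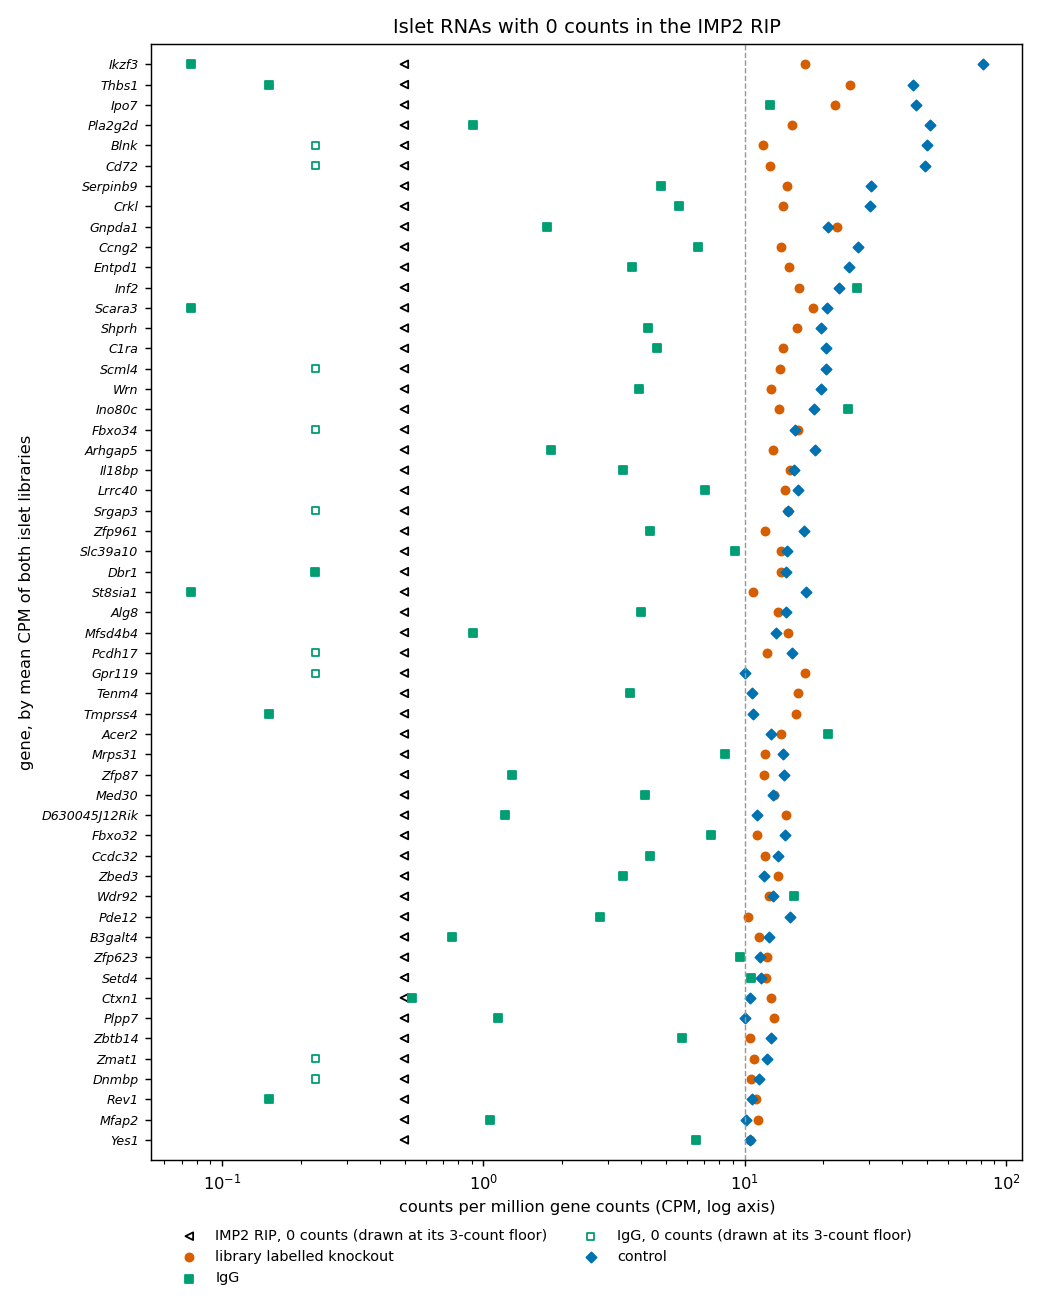
CPM of each of the 54 genes in the IMP2 RIP (open triangles, 0 counts, drawn at the floor of 3 counts), the library labelled knockout, the IgG library (open squares, 0 counts, drawn at its floor of 3 counts) and control islets, on a log axis, with genes ordered by their mean CPM and a dashed line at 10 CPM. Ikzf3 has the highest control level at 81.5 CPM, against 17.0 CPM in the library labelled knockout, and IgG values spread from 0 to 27.0 CPM.

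The share of expressed genes at 0 in the RIP was highest at the lowest levels. It was 3.44% (32 of 930 genes; 95% Clopper-Pearson interval 2.37 to 4.82) at a mean of 10 to 15 CPM, 1.10% (12 of 1091) at 15 to 20 CPM, 0.224% (4 of 1787) at 20 to 30 CPM and 0.269% (6 of 2228) at 30 to 50 CPM. Zero counts in the RIP were more frequent than counts of 1 to 3 in each class that held any. Genes with 1 to 3 counts numbered 2 at 15 to 20 CPM, 3 at 20 to 30 CPM and 1 at 30 to 50 CPM. At 10 to 15 CPM the median RIP count was 60 and its quartiles were 32.3 and 91, while 32 genes had 0, 12 had 1 to 3 and 27 had 4 to 10.

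The IgG library had more expressed genes at 0 than the RIP, although it held more reads. Of the 9282 genes, 54 were at 0 in the RIP and 431 (4.64%) in IgG, and at 10 to 15 CPM the shares were 3.44% in the RIP and 13.8% in IgG (128 of 930; interval 11.6 to 16.1). Both libraries were at 0 for 9 genes, which are 16.7% of the 54 at 0 in the RIP and 2.09% of the 431 at 0 in IgG. Genes of the like level in this text are the expressed genes with a RIP count above 0 in the same class of mean CPM, weighted to the number of the 54 genes in each class.

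**Figure D2:**
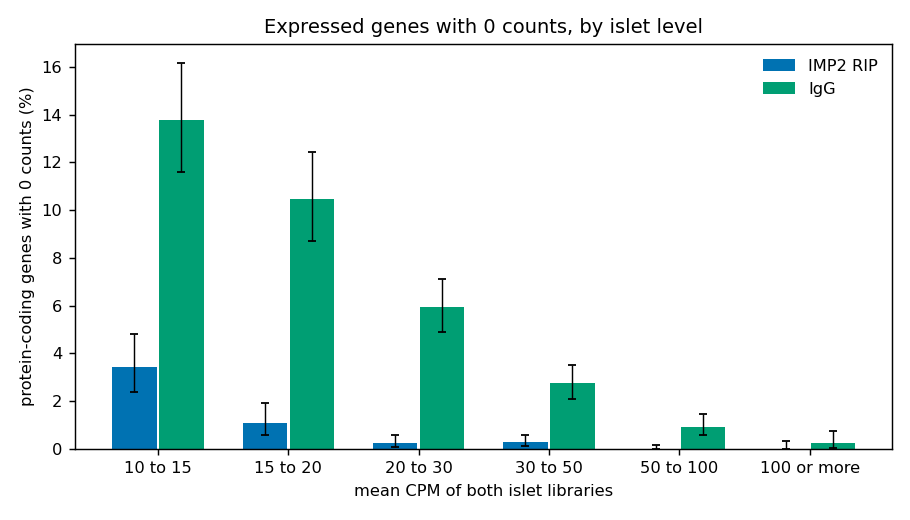
Share of expressed protein-coding genes with 0 counts in the IMP2 RIP and in the IgG library, by mean CPM of both islet libraries. Bars are shares and lines are 95% Clopper-Pearson intervals. In the RIP the share drops to 0 of 3246 genes at 50 CPM or more, and in each class it is lower than in IgG.

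The genes just inside and outside the limits had similar values. Yes1, a Src family kinase, had 254 counts (10.5 CPM) in the library labelled knockout and 276 (10.5 CPM) in control, the lowest mean CPM of the 54, followed by Mfap2 and Rev1. The level nearest to the limit in the library labelled knockout was that of Pde12 (10.3 CPM), and in control Gpr119, Plpp7 and Mfap2 (10.1 CPM each) lay nearest. Lpar6, Esrp2 and Zbtb34 had 0 counts in the RIP and missed 10 CPM in 1 islet library, at 9.97 CPM for Lpar6 in the library labelled knockout, 9.90 CPM for Esrp2 in control and 9.85 CPM for Zbtb34 in the library labelled knockout. The 11 expressed genes with a RIP count of 1 were led by Npc1 (21.7 CPM in the library labelled knockout and 32.7 CPM in control), Dnm1 (28.5 and 24.9 CPM in the same libraries) and Icam2 (13.0 and 23.8 CPM).

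By control CPM the highest of the 54 genes were Ikzf3, Pla2g2d, Blnk and Cd72, all genes of lymphoid cells or tissue, while in the library labelled knockout Thbs1, Gnpda1 and Ipo7 were highest. The groups by function used from here on were written after the values were seen, so their counts are descriptions. Ikzf3 (ENSMUSG00000018168, chromosome 11, 98464902 to 98546031, minus strand), the lymphocyte transcription factor Aiolos, had 413 counts (17.0 CPM) in the library labelled knockout, 1 count (0.0758 CPM) in IgG and 2148 counts (81.5 CPM) in control. Its control CPM was 163.7-fold the floor of 3 counts in the RIP. Blnk (ENSMUSG00000061132, chromosome 19, 40928927 to 40994535, minus strand), an adaptor of the B cell receptor, had 285 counts (11.7 CPM) in the library labelled knockout, 0 in IgG and 1309 (49.7 CPM) in control. Cd72 (ENSMUSG00000028459, chromosome 4, 43446462 to 43454628, minus strand), a coreceptor of B cells, had 303 counts (12.5 CPM) in the library labelled knockout, 0 in IgG and 1288 (48.9 CPM) in control. All 3 were at 0 or 1 count in both immunoprecipitates and lower in the library labelled knockout than in control.

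Pla2g2d (ENSMUSG00000041202, chromosome 4, 138775735 to 138782046, plus strand), a secreted phospholipase A2 found in lymphoid tissue, had 369 counts (15.2 CPM) in the library labelled knockout, 12 (0.909 CPM) in IgG and 1349 (51.2 CPM) in control. By mean level per length it was the most abundant of the 54, at 11.7 TPM (counts per length of all exons of a gene, scaled to the same sum in each library) in the library labelled knockout and 40.3 TPM in control. Serpinb9, an inhibitor of granzyme B, had 351 counts (14.5 CPM) in the library labelled knockout, 63 (4.77 CPM) in IgG and 805 (30.5 CPM) in control. Entpd1, the ectonucleotidase CD39, had 357, 49 and 662 counts in the same libraries. Scml4, a Polycomb-related protein, had 331, 0 and 541 counts. C1ra, a protease of the complement cascade, had 341, 61 and 537 counts, and Il18bp, a secreted protein that binds interleukin 18, had 362, 45 and 407. Of these 9 genes, Pla2g2d, Blnk, Cd72 and Ikzf3 stood furthest above the rest in control, and Il18bp was level between both islet libraries.

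None of the standard B cell markers that reached 10 CPM in both islet libraries was at 0 in the RIP. The B cell list (12 genes) summed to 260.1 CPM in the RIP, 303.4 CPM in the library labelled knockout, 10.4 CPM in IgG and 1535 CPM in control, and 0 of its 12 genes was at 0 in the RIP. Pax5, a transcription factor of B cells, had 422 counts there (70.0 CPM, against 45.5 CPM in control), while Cr2, a complement receptor of B cells, had 1. The T cell list (15 genes) summed to 70.0 CPM in the RIP, 102.7 CPM in the library labelled knockout, 30.8 CPM in IgG and 472.1 CPM in control. Among its genes Cd2, Cd3d, Cd5, Cd8a and Cd8b1 were at 0 in the RIP but below 10 CPM in the library labelled knockout. Both lists summed lower in the RIP and in the library labelled knockout than in control, and their part in the zero counts was not tested. In bulk RNA, fewer cells of a type and less RNA per cell cannot be told apart.

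Apart from the immune genes, 3 genes reached 30 CPM in control. Thbs1 (ENSMUSG00000040152, chromosome 2, 118111876 to 118127133, plus strand), the matrix glycoprotein thrombospondin, had 612 counts (25.2 CPM) in the library labelled knockout, 2 (0.152 CPM) in IgG and 1157 (43.9 CPM) in control. Ipo7 (ENSMUSG00000066232, chromosome 7, 110018274 to 110056609, plus strand), a receptor for import of proteins into the nucleus, had 540 counts (22.2 CPM) in the library labelled knockout, 165 (12.5 CPM) in IgG and 1191 (45.2 CPM) in control. Crkl (ENSMUSG00000006134, chromosome 16, 17451987 to 17487434, plus strand), an adaptor of tyrosine kinase signalling, had 339 counts (14.0 CPM) in the library labelled knockout, 74 (5.61 CPM) in IgG and 795 (30.2 CPM) in control. Thbs1 was near 0 in both immunoprecipitates, whereas Ipo7 and Crkl had reads in IgG alone.

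A group of 8 genes was formed of matrix, adhesion and other surface proteins not placed in the immune or transport groups, namely Thbs1, Scara3, Pcdh17, Tenm4, Mfap2, Tmprss4, Gpr119 and Ctxn1. Gpr119 (ENSMUSG00000051209, chromosome X, 48667979 to 48674478, minus strand), a receptor of beta cells that raises cAMP and promotes insulin secretion, had 412 counts (17.0 CPM) in the library labelled knockout, 0 in IgG and 265 (10.1 CPM) in control. Scara3, a scavenger receptor, had 442, 1 and 543 counts in the same libraries, and Pcdh17, a protocadherin, had 296, 0 and 401. Tenm4, a teneurin, had 387, 48 and 280 counts, Tmprss4, a transmembrane serine protease, had 382, 2 and 283, and Mfap2, a microfibril protein, had 273, 14 and 267. Ctxn1, a small membrane protein, had 306, 7 and 275 counts. These genes were low in IgG apart from Tenm4. Scaled ratios of the labelled knockout over control were 1.75 for Gpr119, 1.55 for Tenm4 and 1.52 for Tmprss4. These 3 were called higher at the 1.5-fold limit given below, as were 2.93% of all expressed genes. Ctxn1 (1.25) and Mfap2 (1.15) were higher by less, and Thbs1, Scara3 and Pcdh17 were lower.

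Genes of DNA repair, chromatin, transcription and RNA turnover were also among the 54. Wrn, a RecQ helicase, had 305 counts in the library labelled knockout, 52 in IgG and 514 in control. Rev1, a polymerase of translesion synthesis, had 267, 2 and 281 counts in the same libraries, and Shprh, a ubiquitin ligase of DNA damage tolerance, had 383, 56 and 517. Ino80c (chromosome 18, 24104757 to 24121953, minus strand), a subunit of the INO80 chromatin remodeller, had 327, 327 and 483 counts. Dbr1, the enzyme that opens intron lariats, had 334, 3 and 378, and Med30, a subunit of the Mediator complex, had 314, 55 and 337. Setd4, a methyltransferase, had 292, 140 and 305 counts, and Ccng2, a cyclin linked to growth arrest, had 333, 87 and 715. Ino80c had the highest IgG level of this group at 24.8 CPM, above its 18.3 CPM in control.

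A group of 6 genes was formed of zinc finger proteins not placed in another group (Zfp961, Zfp87, Zfp623, Zbtb14, Zbed3 and Zmat1). Such proteins bind DNA or RNA, and Ikzf3, in the immune group, is also one. Their levels lay between 10.5 and 16.9 CPM in both islet libraries, and in IgG Zmat1 was at 0 and Zfp623 had 126 counts (9.55 CPM). Of the 171 expressed genes of the Zfp, Zkscan and Zscan families, 3 (1.75%) were at 0 in the RIP, against 0.582% of all expressed genes. These shares are not matched in level. Only 86 of the 171 reached 20 CPM in both islet libraries, and 0 of those was at 0 in the RIP. Over all expressed genes the share was 3.44% at a mean of 10 to 15 CPM and 1.10% at 15 to 20 CPM.

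Another 6 genes act on the cytoskeleton or in kinase and GTPase signalling, namely Crkl, Yes1, Arhgap5, Srgap3, Dnmbp and Inf2. Inf2 (chromosome 12, 112588784 to 112615557, plus strand), a formin that assembles actin, had 393 counts (16.2 CPM) in the library labelled knockout, 356 (27.0 CPM) in IgG and 606 (23.0 CPM) in control, the highest IgG level among the 54. Srgap3, a GTPase-activating protein, had 355 counts in the library labelled knockout, 0 in IgG and 385 in control, and Dnmbp, an exchange factor for the GTPase Cdc42, had 256, 0 and 298. Arhgap5, another GTPase-activating protein, had 312, 24 and 488 counts. The group ranged from 0 to the highest level in IgG.

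The group of glycan, lipid and amino sugar metabolism was made up of 6 genes. Acer2 (chromosome 4, 86874396 to 86934822, plus strand), a ceramidase of the Golgi, had 335 counts (13.8 CPM) in the library labelled knockout, 275 (20.8 CPM) in IgG and 331 (12.6 CPM) in control. St8sia1, the synthase of the ganglioside GD3, had 260, 1 and 451 counts in the same libraries, and Gnpda1, which deaminates glucosamine phosphate, had 548, 23 and 547. Alg8, a glucosyltransferase of N-glycan synthesis, had 324, 53 and 380 counts, B3galt4, a galactosyltransferase of gangliosides, had 275, 10 and 326, and Plpp7 had 315, 15 and 265. The rest were the ubiquitin ligase subunits Fbxo34 (389, 0 and 412) and Fbxo32 (270, 98 and 377), the mitochondrial proteins Mrps31 (291, 111 and 369) and Pde12 (250, 37 and 394), and the zinc transporter Slc39a10 (333, 121 and 384). Mfsd4b4 (354, 12 and 346), Lrrc40 (347, 93 and 421), Ccdc32 (291, 57 and 352), Wdr92 (301, 203 and 339) and D630045J12Rik (348, 16 and 294) complete the set, with counts in the same order.

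In 48 lists of cell type markers, complexes and pathways, 1259 genes were expressed, and 45 lists held 0 of the 54. The RIP gave at least 106 counts for each of the 16 beta cell markers and at least 80 for each of the 8 alpha cell markers. The 3 lists that held any of the 54 were mitochondrial ribosomal proteins (Mrps31, 1 of 68), basal transcription and Mediator (Med30, 1 of 61) and the zinc finger families (3 of 171). None of the 45 expressed proteasome subunits was at 0 in the RIP. At the background of 0.582%, a list of this size would hold few or none.

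The IgG library, which the rule did not use, held reads of most of these RNAs, at low levels. Of the 54, 45 had at least 1 count in IgG and 37 had 10 or more. In all, 9 (16.7%; interval 7.92 to 29.3) were at 0, against 11.2% of genes of like level and 4.64% of all expressed genes. These were Blnk, Cd72, Scml4, Fbxo34, Pcdh17, Srgap3, Gpr119, Zmat1 and Dnmbp. At 3 counts or fewer there were 16 of the 54 (29.6%; interval 17.98 to 43.6), against 20.5% of genes of like level and 11.5% of all expressed genes. Both intervals include the share at like level.

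The level in IgG was lower for the 54 genes than for genes of like level. Their median was 3.11 CPM (quartiles 0.152 and 5.72), against 5.76 CPM (1.21 and 18.1) at like level, and 42 of the 54 lay below the median of their own class. The median log2 ratio of IgG over control was -2.71 for the 54 and -1.54 at like level. Only Inf2, Ino80c, Acer2 and Wdr92 stood higher in IgG than in control, 7.41% of the 54 (interval 2.06 to 17.9), against 26.5% at like level and 23.5% of all expressed genes. Acer2 had the largest ratio of IgG over control, 1.66 (1.41 to 1.95), then Ino80c at 1.35 (1.17 to 1.56) and Inf2 at 1.17 (1.03 to 1.34), while that of Wdr92 was 1.20 with an interval that included 1. Fat RNA was high in both immunoprecipitates: the 8 adipocyte markers summed to 1462 CPM in the RIP and 22324 CPM in IgG, against 42.0 CPM in control, and the part of that RNA in these ratios was not tested.

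**Figure D3:**
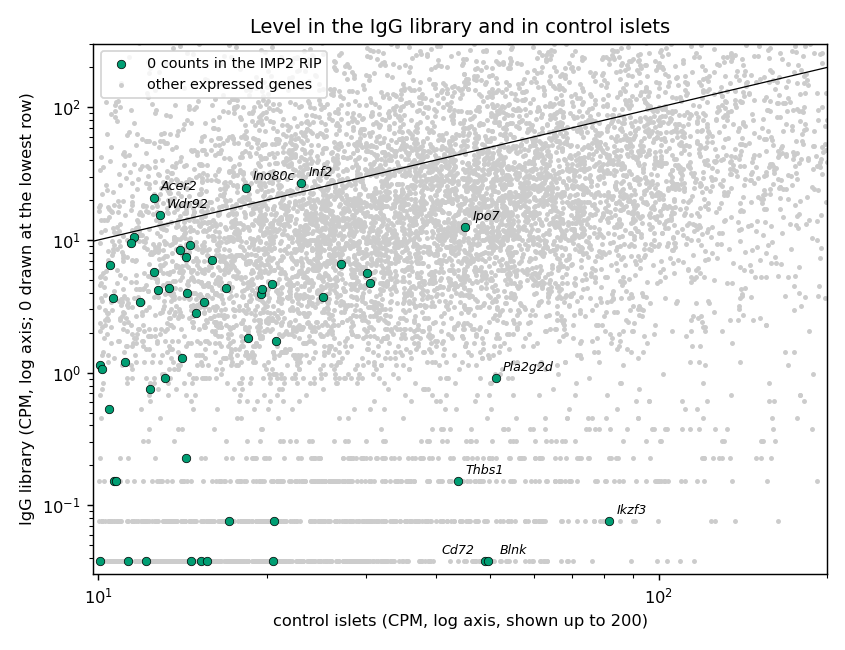
Level in the IgG library against control islets for the 54 genes (green) and the other expressed genes (grey), in CPM on log axes, with a line of equal level, 0 counts drawn on the lowest row, and grey points beyond the axes not shown. Acer2, Ino80c, Inf2 and Wdr92 lie above the line, while Blnk and Cd72 lie on the lowest row at nearly 50 CPM in control.

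Most of the 54 genes had ratios of the labelled knockout over control within 1.5-fold, and those past it were mostly lower. Ratios of the labelled knockout over control were scaled with TMM normalisation, and a gene was called at a ratio of 1.5-fold or more with a 95% interval that excluded 1. Of the 54 genes, 11 were called lower (20.4%; interval 10.6 to 33.5), against 8.65% of all 9282 expressed genes and 4.93% of genes of like level. Another 3 were called higher (5.56%; interval 1.16 to 15.4), against 2.93% of all expressed genes and 3.38% at like level. The other 40 had ratios within 1.5-fold. The rule asks for 10 CPM in both islet libraries, which bounds the ratio of a gene near 10 CPM.

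The 8 genes at 30 CPM or more in control were among those called lower, but control CPM is also the lower term of the ratio, so no reading is drawn from that order. Ordered by the library labelled knockout, Thbs1 (25.2 CPM, ratio 0.595), Gnpda1 (22.6 CPM, 1.13) and Ipo7 (22.2 CPM, 0.510) were highest. Scara3 (18.2 CPM, 0.915), Ikzf3 (17.0 CPM, 0.216) and Gpr119 (17.0 CPM, 1.75) came next. Of these, Thbs1, Ipo7 and Ikzf3 were called lower, Gpr119 was called higher, and Gnpda1 and Scara3 were not called. That level is the upper term of the ratio, so no reading is drawn from this order either. Ikzf3 fell 4.63-fold (ratio 0.216, interval 0.194 to 0.240), Blnk 4.09-fold (ratio 0.245, 0.215 to 0.278), Cd72 3.78-fold (0.264, 0.233 to 0.300) and Pla2g2d 3.25-fold (0.307, 0.273 to 0.345). Crkl, Serpinb9, Ipo7 and Thbs1 followed, with ratios of 0.479, 0.490, 0.510 and 0.595. The others called lower were Ccng2 (ratio 0.524), Entpd1 (0.606) and St8sia1 (0.648). Of the 9 immune genes, 6 were called lower and 0 higher, with a median ratio of 0.490. Of the other 45 genes, 5 (11.1%) were called lower, against 8.65% of all expressed genes. The groups were written after these values were seen, so no reading is drawn from the difference between them. The B and T cell lists moved the same way between these libraries, and their part in these ratios was not tested.

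The genes called higher in the library labelled knockout were Gpr119, Tenm4 and Tmprss4. Gpr119 was 1.75-fold higher (interval 1.49 to 2.05), Tenm4 1.55-fold (1.33 to 1.82) and Tmprss4 1.52-fold (1.30 to 1.78). Tmprss4 was under the limit with library totals (1.47-fold) and with DESeq2 size factors (1.49-fold), which left 2 called higher. The shares of all expressed genes called higher were 2.14% and 2.46% in the same order. All 3 lay between 10.1 and 10.7 CPM in control, just above the limit. Over the 54 genes the median log2 ratio was -0.11, against 0.02 at like level and 0.02 over all expressed genes, and 36 of the 54 had a ratio below 1 (66.7%, against 46.9% of all expressed genes). Of the 803 expressed genes called lower, 11 (1.37%) were at 0 in the RIP, against 0.582% of all expressed genes. At 0 were also 3 of the 272 called higher (1.10%) and 40 of the 8207 not called (0.487%). These shares use the counts that the rule used and are not matched in level, so no reading is drawn from them.

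**Figure D4:**
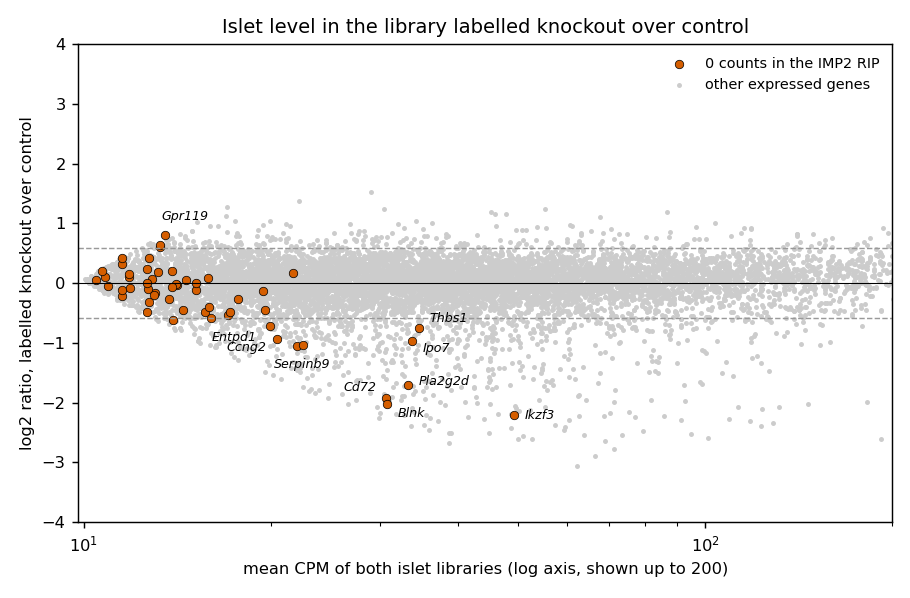
Log2 ratio of the library labelled knockout over control against mean CPM (log axis) for the 54 genes (orange) and other expressed genes (grey), with dashed lines at 1.5-fold. Ikzf3, Blnk, Cd72 and Pla2g2d lie lowest among the 54, and most of the others lie near 0 below 20 CPM, where the limit of 10 CPM in both libraries narrows the range.

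The lengths of the transcripts at 0 in the RIP, set against expressed genes of like CPM, split on both sides of the median, and the direction turned with classes of TPM. The longest coding transcript of each gene had a median of 3487 bases (quartiles 2263 and 5003), against 3180 (2064 and 4594) at like level, and 25 of the 54 (46.3%; interval 32.6 to 60.4) were shorter than the median of their class. The median coding sequence was 1374 bases, against 1323, with 23 shorter (42.6%; 29.2 to 56.8), and the median 3′ UTR was 1349 bases, against 1260, with 23 shorter (42.6%). With classes of TPM in place of CPM, 70.4% were shorter in mature length, 66.7% in coding length and 61.1% in the 3′ UTR. TPM divides by length, so a gene of low CPM is short at a given TPM, and the part of this in the shift was not tested. The lengths ran from Med30 (1007 bases), Mfap2 (1073 bases) and Ctxn1 (1212 bases) to D630045J12Rik (10968 bases), Pcdh17 (11451 bases) and Tenm4 (13172 bases). At a mean of 10 to 20 CPM, the share at 0 in the RIP was 2.17% among the 506 genes with the shortest transcripts (interval 1.09 to 3.86) and 2.57% among the 505 with the longest (1.38 to 4.36). The genes had a median of 7.5 exons, against 8 at like level.

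The GC content of the transcripts had a median of 47.9% (quartiles 44.6 and 51.2), against 49.4% (44.9 and 54.3) at like level, and 35 of the 54 (64.8%; interval 50.6 to 77.3) lay below the median of their class. Arhgap5 was lowest at 33.9% and Inf2 highest at 60.4%. In the 3′ UTR alone, 30 of 52 lay below (57.7%; interval 43.2 to 71.3), which includes an even split.

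The CAUH motif had a higher median density in these transcripts than in genes of like level. CATA, CATC and CATT together, searched on the transcript strand, occurred a median of 11.4 times per kb, against 10.6 at like level. Of the 54, 35 lay above the median of their class and 19 below (35.2%; interval 22.7 to 49.4). In the 3′ UTR the median was 12.4 per kb, against 11.5, and 36 of 52 lay above and 16 below (30.8%; interval 18.7 to 45.1). Slc39a10 had the highest density at 19.8 per kb and Setd4 the lowest at 5.48. GGAC occurred a median of 3.55 times per kb, against 4.03 at like level, with 32 of the 54 below the median of their class (59.3%; interval 45.03 to 72.4), and ACACA 1.41 times, against 1.26, with 22 below (40.7%; interval 27.6 to 54.97). Density follows base composition, since CAUH has fewer G and C than GGAC, and its part was not tested.

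**Figure D5:**
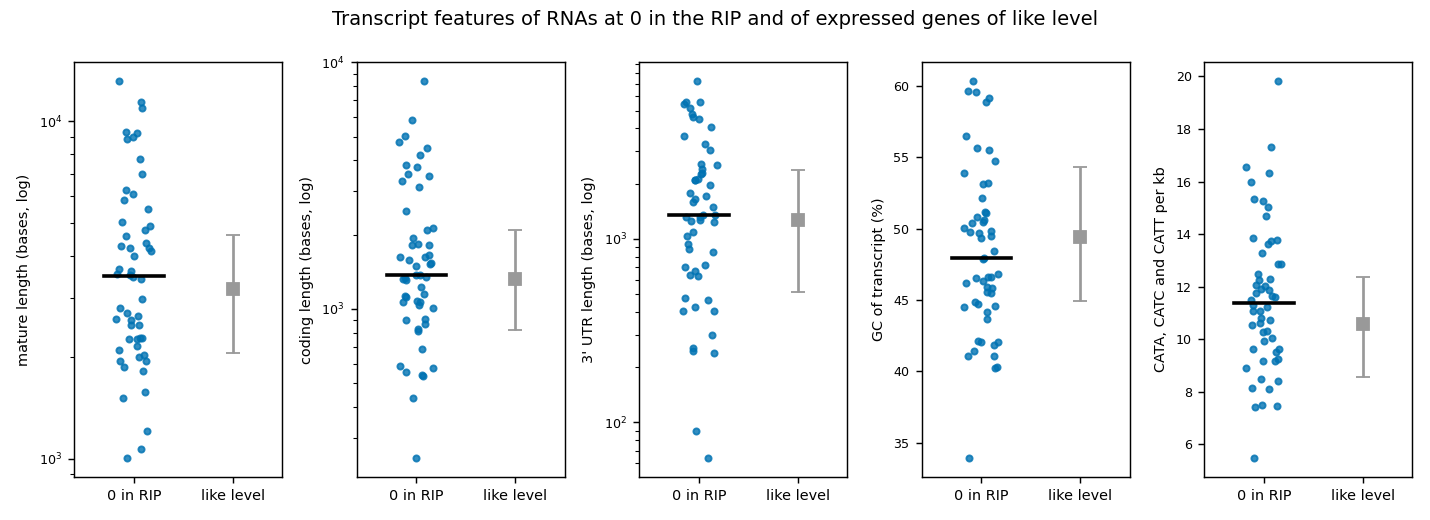
Lengths, GC content and density of CATA, CATC and CATT for the 54 genes (points, with the median as a black line) and for expressed genes of like level (square and bar, median and quartiles). Lengths are on log axes. With classes of CPM the median mature length is 3487 bases for the 54 genes and 3180 at like level, the median GC content 47.9% and 49.4%, and the median motif density 11.4 and 10.6 per kb.

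The genes lay on 20 chromosomes with at most 4 on any of them, and the closest pair, Entpd1 and Blnk on chromosome 19, was 187325 bases apart. Of the 54, 16 (29.6%) overlapped another annotated gene on the same strand, against 22.04% at like level, and 24 (44.4%) overlapped one on the opposite strand, against 46.4%. HTSeq by default assigns a read in more than 1 gene to neither, and the setting used and the part of overlap in the counts were not tested.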

How the data were processed

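The deposited files hold whole-number read counts per gene, 1 file per library, made by the authors with STAR and HTSeq on mm10, per the submitters' processing notes. The labels name no version, annotation release or strand option. The 5 closing entries that name no gene held 72.4% of the RIP total, 70.5% of IgG, 50.3% of the labelled knockout and 50.8% of control, and stayed out of all sums. Gene types, coordinates and transcripts came from GENCODE M21 (GRCm38, the assembly of mm10), which matched 42548 of 43629 identifiers. CPM and TPM were computed here from the counts. Labelled knockout and control were scaled by TMM in edgeR 4.0.16 under R 4.3.3, and ratios have exact Clopper-Pearson intervals. Classes of mean CPM had limits at 10, 15, 20, 30, 50 and 100. For the log2 ratio of IgG over control, 0.5 counts were added. No test was made and no p-value is given, since each group has 1 library. The code for ratio calls and level classes was checked on simulated counts, from which no value is quoted. Named genes followed a rule (highest TPM, CPM and IgG level, largest called ratios, length extremes, genes at the limits, list members), and every one of the 54 genes is named. The genes, lists and groups were chosen with earlier results of these data known. Alternatives were other CPM, RIP and fold limits, other scalings, transcripts and level classes. Intervals came from SciPy 1.17.1 and tables from pandas 2.3.3 with NumPy 2.4.6, run in Python 3.11.15, and plots from Matplotlib 3.10.9.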

Additional observations from a re-analysis of the deposited data

How the results depend on the processing

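The number of genes at 0 in the RIP rests on the CPM limit. It was 266 at a minimum of 5 CPM (2.40% of expressed genes), 3 at 20 CPM (0.0450%; Thbs1, Ipo7 and Gnpda1) and 149 with Ins1, Ins2 and Gm42418 left out of the total, and each wider set held all 54. It was 155 with the limit set in control alone, an alternative chosen after seeing the data. With a RIP count of 3 or fewer it was 72 (0.776%), and with all gene types 56. Genes also at 0 in IgG numbered 16 at 3 counts or fewer and 0 at 20 CPM. Under DESeq2 1.42.0 size factors 12 of the 54 were called lower and 2 higher, against 9.20% and 2.46% of all expressed genes. With library totals the calls were 13 lower and 2 higher, against 9.74% and 2.14%. At a 2-fold limit they were 6 lower and 0 higher, against 3.78% and 0.194%. At 20 CPM 2 of the 3 genes were called lower and 0 higher, against 6.61% and 2.52% of the genes expressed at that limit. With classes of TPM in place of CPM, 70.4% were shorter than the median in mature length, 66.7% in coding length and 61.1% in 3′ UTR length. A gene of low CPM is short at a given TPM, and the part of this in the shift was not tested. ACACA density lay below the median for 55.8% in the 3′ UTR alone. Lists with a member held 0 at 20 CPM, and the zinc finger list held 5 at a RIP count of 3 or fewer. No paired analysis was possible because each group has 1 library. Depth limits the RIP most, at 0.498 CPM for 3 counts.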

Other observations

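Genes at 10 CPM or more in 1 islet library only were left out of the set of 54, and their values are given without a comparison with it, since they passed the limit through that library alone and were not matched to it in level. Of 656 protein-coding genes at 10 CPM or more in control and below it in the library labelled knockout, 101 (15.4%; interval 12.7 to 18.4) were at 0 in the RIP and 207 (31.6%) in IgG. Of 250 genes at 10 CPM or more in the library labelled knockout alone, 16 (6.40%; interval 3.70 to 10.2) were at 0 in the RIP and 76 (30.4%) in IgG. Where the higher of both islet levels lay from 10 to 15 CPM, the shares at 0 in the RIP were 14.6% (57 of 390) for the genes at the limit in control alone and 6.72% (16 of 238) for those at it in the library labelled knockout alone. Each group was selected through the library in which its genes were higher, so no reading is drawn from the difference.

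Among the 101 genes, the following were picked from the 12 with the highest control level after their values were seen. Arhgap25, a GTPase-activating protein of leukocytes, had 9.60 CPM in the library labelled knockout, 0 in IgG and 38.6 CPM in control. Fcrl1, a receptor-like protein of B cells, had 6.30, 0.0758 and 37.2 CPM in the same libraries, and Cd2, an adhesion molecule of T cells, had 7.37, 0 and 34.3 CPM. Slamf6, Ms4a4b and Cd5, lymphocyte surface proteins, had 33.4, 31.5 and 24.97 CPM in control. Slc28a2, a nucleoside transporter, had reads in IgG, with 8.53 CPM in the library labelled knockout, 23.7 CPM in IgG and 25.5 CPM in control.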
